A study of Mus musculus with 2 samples.

Results

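YY1 peaks inside gene bodies made up 380 of the 4681 peaks in the deposited YY1 ChIP-seq list (8.12%, 95% exact binomial interval 7.35 to 8.94%). A peak was counted as lying in a gene body when its summit was inside the span of an annotated gene and more than 1000 bp from every transcript start of the GENCODE basic annotation, release M21, on GRCm38 (mm10). Of the other peaks, 3971 were in promoters, that is within 1000 bp of a start, and 330 were intergenic. The study's own split of the 4681 peaks gave gene bodies a larger share, and its text does not define its promoter regions. With promoters taken from 1000 bp upstream to 100 bp downstream of a start, 1224 peaks (26.1%) were in gene bodies. ChIP-seq recovers the DNA fragments bound by a protein with an antibody, so that bound sites appear as local pileups of fragments. The list comes from 1 YY1 library of muscle stem cells (MuSCs), called against 1 background library that was not analysed here. The study's methods describe freshly isolated MuSCs mixed from many Ctrl mdx mice, the dystrophin-deficient model of Duchenne muscular dystrophy, while the GEO record describes cultured cells and wild-type MuSCs. Ctrl mice keep both Yy1 alleles (Yy1+/+) and carry the Pax7CreERT2 driver, which is active in Pax7-expressing cells, and the R26YFP reporter. Tamoxifen was given to Ctrl mice elsewhere in the study, and the age and treatment of the mice used for this library were not given in the sources used here. For the background library the labels say input, and the methods name it both input and IgG. There are no replicates, so intervals cover counting error only and no spread between mice could be given.

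YY1 is a zinc finger protein that binds a short element with the core ATGGC and can activate or repress transcription depending on its partners. It is known mainly as a promoter factor, and it can also join distant elements to promoters by pairing with YY1 bound elsewhere. In MuSCs, the resident stem cells that repair skeletal muscle, YY1 has been studied as a regulator of activation and metabolism. The element AANATGGC (N is any base) was looked for on either strand, up to 100 bp from the summit.

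The gene-body peak with the most copies of AANATGGC was in the Yy1 gene itself. Yy1 (chr12, plus strand) carried a peak at chr12:108793675-108794517 with its summit in the first intron, 1345 bp downstream of the start. It had 19 fragments at the summit over a local background of 1.98, a fold enrichment of 6.72, which ranked 17 among the 380. The 4 copies of the element, printed in capitals below, lay between 171 and 81 bp upstream of the summit, 2 on each strand, and the whole peak held 6 copies of the core ATGGC. The stretch is shown because 3 gene-body peaks held 2 or more copies of AANATGGC anywhere in the peak and none held more than this one.
Yy1 (chr12:108794119-108794418, plus strand): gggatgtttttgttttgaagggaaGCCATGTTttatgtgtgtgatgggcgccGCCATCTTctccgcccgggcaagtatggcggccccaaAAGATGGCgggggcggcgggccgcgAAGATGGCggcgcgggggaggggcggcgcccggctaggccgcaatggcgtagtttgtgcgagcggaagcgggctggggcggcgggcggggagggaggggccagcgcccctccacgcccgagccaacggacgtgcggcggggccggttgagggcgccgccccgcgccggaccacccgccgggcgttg

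Another 6 gene-body peaks had AANATGGC within 100 bp of the summit. Their hosts were Nr3c1, the glucocorticoid receptor (fold enrichment 5.92), Pstpip2, an adaptor of the actin cytoskeleton (5.19), Sept9, a septin (4.45), Fmnl2, a formin (4.34), Usp9x, a deubiquitinase (4.34), and Nfic, a nuclear factor I transcription factor (4.29). Except for Nr3c1, where no basic transcript covered the summit, these summits were in introns. The 60 bp around the element are shown for 4 of these peaks, with the element in capitals. Letters that read GCCAT are the same element on the minus strand. The element lay 39 bp downstream of the summit along the plus strand in Sept9, 48 bp downstream in Fmnl2, 38 bp upstream in Usp9x and 14 bp downstream in Nfic.
Sept9 (chr11:117318342-117318401, plus strand): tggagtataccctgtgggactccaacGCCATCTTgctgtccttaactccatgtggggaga
Fmnl2 (chr2:52942233-52942292, plus strand): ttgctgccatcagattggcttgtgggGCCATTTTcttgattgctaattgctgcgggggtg
Usp9x (chrX:13072556-13072615, plus strand): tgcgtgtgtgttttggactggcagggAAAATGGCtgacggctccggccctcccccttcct
Nfic (chr10:81411912-81411971, plus strand): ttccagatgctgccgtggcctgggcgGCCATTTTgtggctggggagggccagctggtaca

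The element was rarer in gene-body peaks than in promoter peaks. It was present in 7 of 380 gene-body windows (1.84%, interval 0.744 to 3.76%) and in 292 of 3971 promoter windows (7.35%, interval 6.56 to 8.21%), with 6.63% over all windows without unknown bases. The ratio of the shares was 0.251 (95% interval 0.119 to 0.526, two-sided Fisher's exact test, adjusted p = 1.47e-05 over 5 tests). When peaks under a 5-fold enrichment were left out the ratio was 0.323 (exact test, adjusted p = 0.156). It was closer to 1 for shorter forms, with 0.816 for the core ATGGC (25.3% and 31.0% of windows, exact test, adjusted p = 0.0380) and 0.663 for AANATGG (6.58% and 9.92%, exact test, adjusted p = 0.0449). With promoters of 500 bp either side of a start it was 0.418, and with 1000 bp upstream to 100 bp downstream 0.475. In CpG-rich windows, as defined below, the shares were 3 of 130 (2.31%) in gene bodies and 287 of 3668 (7.82%) in promoters, and in the other windows they were 4 of 250 and 5 of 303 in the same order. Intergenic summits held it in 11 of 327 windows (3.36%), a ratio of 0.548 for gene-body against intergenic windows (interval 0.215 to 1.40, exact test as before, adjusted p = 0.235). Windows centred 2000 bp to either side of the gene-body summits, where they overlapped no peak, held it in 28 of 733 cases (3.82%), a ratio of 0.482 (interval 0.213 to 1.09, exact test, adjusted p = 0.127). A difference from intergenic peaks or from flanking sequence was thus not shown with 7 carriers, and it depended on the settings. Against flanks the ratio was 0.324 with 2000 bp around starts left out (exact test, adjusted p = 0.0318) and 0.502 for the shorter AANATGG (adjusted p = 0.00191). With promoters from 1000 bp upstream to 100 bp downstream it was 1.23 against flanks (exact test, adjusted p = 0.473) and 1.17 against intergenic peaks (adjusted p = 0.852). These tests compare peaks and windows of 1 list and do not describe variation between animals. The tests against flanks counted every window as independent and did not use its pairing with a summit. Within whole peaks, 15 gene-body peaks (3.95%) held the element, which adds Anp32b with 3 copies, Smarcd3, a subunit of SWI/SNF chromatin remodellers, Baz2a, Baiap2, Trio, 2310001H17Rik, Tab2 and Ppp1r12b.

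Gene-body peaks were also weaker than promoter peaks. The median fold enrichment was 4.34 in gene bodies (quartiles 3.85 and 5.13), 5.13 in promoters (4.34 and 6.05) and 4.72 between genes (3.70 and 5.92). A fold enrichment of at least 5 was reached by 122 gene-body peaks (32.1%), while 53.9% of all peaks reached it. The share was 56.8% in promoters, a ratio of 0.565 (interval 0.487 to 0.655, Fisher's exact test, adjusted p = 1.04e-19), and 43.9% in intergenic peaks, a ratio of 0.731 (interval 0.604 to 0.884, adjusted p = 0.00239). The comparison with intergenic peaks depended on the limit, since at a fold of at least 4 the shares were 69.5% and 69.4% (ratio 1.00, exact test, adjusted p = 1). With protein-coding genes only, the ratio was 0.843 (exact test, adjusted p = 0.0782), and with starts covered from 1000 bp upstream to 100 bp downstream it was 0.986 (adjusted p = 0.852). A q-value under 0.01 was met by 327 gene-body peaks (86.1%) beside 91.6% of all peaks.

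**Figure D1:**
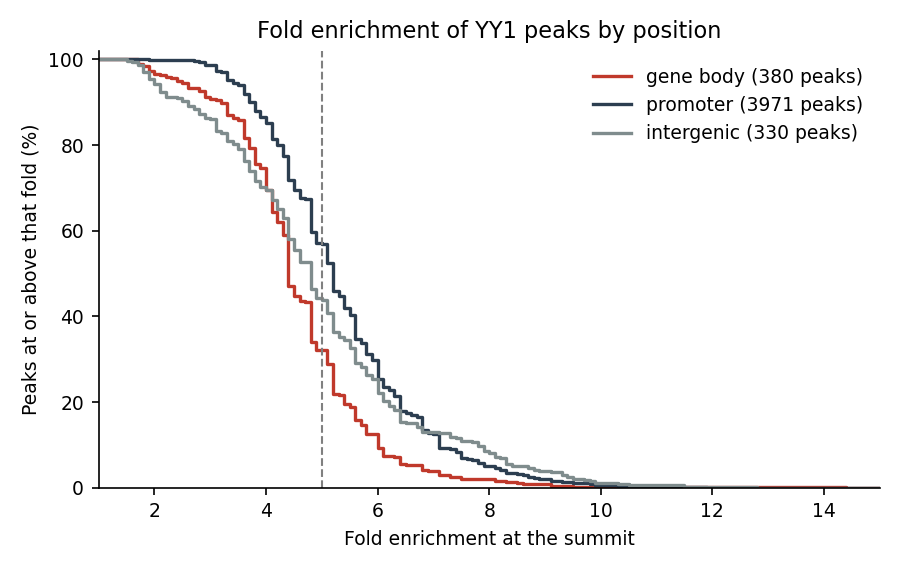
Share of YY1 peaks (vertical axis, percent) with a fold enrichment at or above the value on the horizontal axis, for 380 gene-body, 3971 promoter and 330 intergenic peaks, with a dashed line at 5. At 5, the gene-body line is at 32.1% and the promoter line at 56.8%.

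The numbers of fragments behind these folds were small. The median gene-body peak had 13 fragments at its summit (quartiles 11 and 17) over a local background of 1.98, and the median promoter peak had 15. Since 134 gene-body peaks (35.3%) shared the same lowest background of 1.54 fragments, many of them have the same fold, and their folds differ in steps of 1 fragment. The lowest background corresponds to a library of 13357693 fragments when the narrowest peak, 215 bp, is taken as the fragment length.

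Gene-body peaks gathered near starts even beyond the 1000 bp that the rule removed. The median distance from the summit to the nearest start was 6390 bp (quartiles 2160 and 16105 bp), from 1003 bp to 273351 bp in the intron of Rora, a nuclear receptor gene. Between 1000 and 1500 bp from a start there were 63 peaks, or 2.03 per Mb of gene-body sequence at that distance. The density fell to 0.864 per Mb up to 2000 bp, 0.601 per Mb up to 5000 bp, 0.292 per Mb up to 10000 bp, 0.228 per Mb up to 50000 bp and 0.142 per Mb beyond. In all, 88 peaks (23.2%, interval 19.0 to 27.7%) were within 2000 bp of a start, and 153 (40.3%) were more than 10000 bp away. The share within 2000 bp depended on the promoter window. It was 49.7% with 500 bp either side of a start and 76.1% with 1000 bp upstream to 100 bp downstream. The nearest start belonged to the host gene for 208 peaks (54.7%), and 248 summits (65.3%) lay downstream of it.

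Introns held most of the peaks and coding exons more than their length. The summit was in an intron for 272 peaks (71.6%, interval 66.8 to 76.1%), while introns made up 90.1% of gene-body bases more than 1000 bp from a start. First introns held 139 peaks (36.6%, interval 31.7 to 41.6%) in 30.7% of the bases, or 0.395 per Mb, and later introns held 133 in 59.4% of the bases, or 0.196 per Mb. Coding exons held 52 peaks (13.7%, interval 10.4 to 17.6%) in 2.60% of the bases, or 1.74 per Mb. The other summits were in 3′ UTRs (17 peaks), 5′ UTRs (10, or 14.0 per Mb), non-coding exons (10) or parts of gene spans that no basic transcript covers (19). Of the 52 peaks in coding exons, 43 (82.7%) met the CpG island rule given below, against 67 of the 272 in introns (24.6%).

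**Figure D2:**
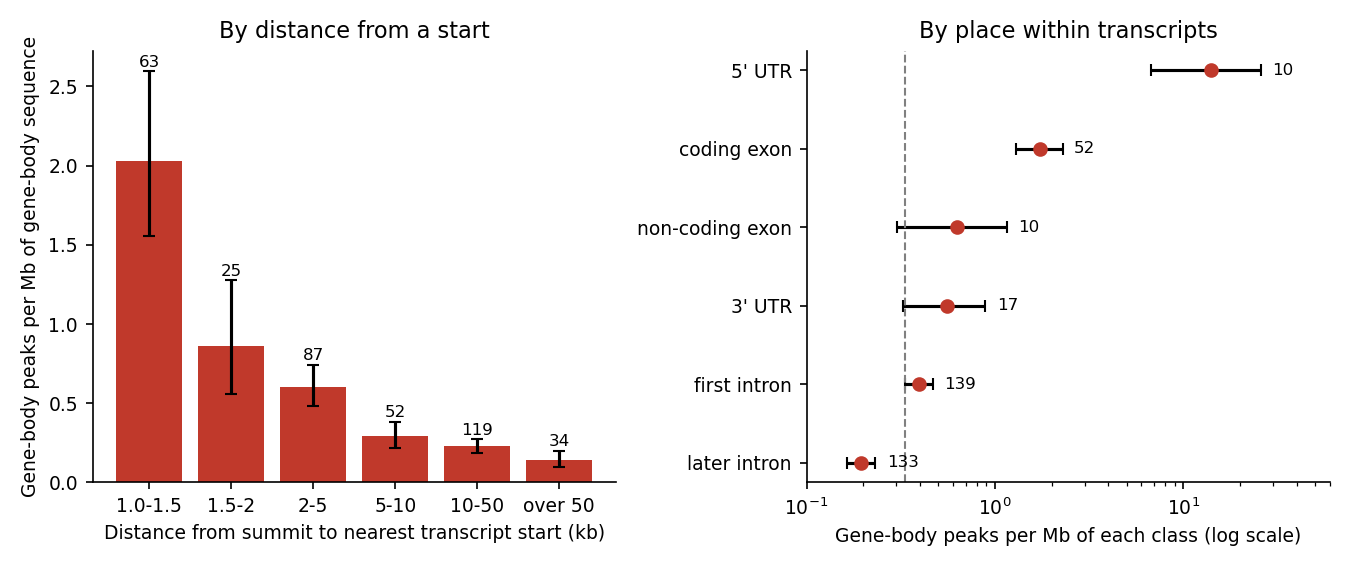
Gene-body YY1 peaks per Mb of gene-body sequence, by distance from the nearest transcript start (left) and by place within transcripts on a log scale (right). Numbers give the peaks in each class, bars and points give the density, error lines are 95% Poisson intervals for counting error, and the dashed line on the right is the density over all gene-body sequence, 0.332 per Mb. By distance the density is highest next to the starts, 2.03 per Mb, and by place it runs from 14.0 per Mb in 5′ UTRs to 0.196 per Mb in later introns.

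At the rule's limit, the 13 gene-body peaks between 1001 and 1100 bp from a start had a median fold enrichment of 4.82, with 9 of them CpG rich. The 27 peaks between 901 and 1000 bp, which count as promoter peaks whether or not they lie in a gene, had a median of 5.12, with 22 CpG rich. Starts that the basic annotation lacks also lay close to some gene-body summits. Of the 380, 61 were within 1000 bp of a start of the comprehensive GENCODE annotation and 28 within 1000 bp of a curated RefSeq start, 73 in all (19.2%). These 73 peaks had a median fold of 4.73 and met the CpG island rule in 49 cases (67.1%), and the other 307 had a median of 4.34 and met it in 81 cases (26.4%).

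Gene-body peaks fell into CpG-rich and CpG-poor sequence. The GC share of the 201 bp around the summit had a median of 58.7% in gene-body peaks, 70.6% in promoter peaks and 57.5% in intergenic peaks. A window was counted as CpG rich when its GC share was over 50% and its observed number of CpG over 0.6 of the expected number. This rule was met by 130 gene-body peaks (34.2%, interval 29.4 to 39.2%), 92.4% of promoter peaks and 40.3% of intergenic peaks. The gene-body share depended on the promoter window. It was 25.3% with 2000 bp either side of a start, 50.3% with 500 bp and 74.0% with 1000 bp upstream to 100 bp downstream. The 130 CpG-rich gene-body peaks lay a median of 2275 bp from a start and had a median fold of 4.76, with 60 (46.2%) at a fold of at least 5. The other 250 lay a median of 10412 bp from a start and had a median fold of 4.34, with 62 (24.8%) at a fold of at least 5. Promoter peaks that met the rule reached that fold in 58.1% of cases and those that did not in 41.3%.

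The E-box CAGCTG was found at a higher share of gene-body summits than of promoter summits or flanking windows. E-boxes are the elements of basic helix-loop-helix factors, and CAGCTG is a form that MyoD and related myogenic factors bind. It lay within 100 bp of 96 gene-body summits (25.3%, interval 20.97 to 29.9%). The share was 10.9% in promoter peaks (interval 9.98 to 11.9%), 15.6% in intergenic peaks (interval 11.8 to 20.0%) and 6.96% in the flanking windows of the gene-body peaks (interval 5.22 to 9.05%). With promoters taken from 1000 bp upstream to 100 bp downstream of a start, the gene-body share was 16.5%, close to that of intergenic peaks. The same letters in another order, CTGCAG, showed 13.7% at gene-body summits, 11.9% at promoter summits and 10.8% in the flanking windows. The wider form CANNTG was in 228 of 380 gene-body windows and 65.5% of flanking windows, and CACCTG in 57 of 380 and 15.6%. Of the E-box forms searched, CAGCTG was thus the one with a higher share at gene-body summits than in flanks. Promoter windows held CANNTG in 38.2% and CACCTG in 9.57%, so every E-box form searched had a lower share there than in gene bodies.

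CAGCTG was found in introns and coding exons and in CpG-rich and other sequence. Gene-body peaks without any repeated stretch of 50 bases held it in 82 of 275 cases (29.8%), those in introns in 67 of 272 (24.6%) and those in coding exons in 14 of 52 (26.9%). It was in 74 of the 250 gene-body peaks that were not CpG rich (29.6%) and in 22 of the 130 that were (16.9%), and promoter peaks that were not CpG rich held it in 46 of 303 cases (15.2%). Intergenic peaks that were not CpG rich held it in 38 of 194 cases (19.6%, interval 14.2 to 25.9%), which overlaps the interval of the gene-body peaks of that kind (24.0 to 35.7%). By distance from a start, the share did not rise steadily. It was 22.2% between 1000 and 1500 bp, 3 of 25 peaks between 1500 and 2000 bp and 28.7% up to 5000 bp. Beyond that it was 19.2% up to 10000 bp, 26.9% up to 50000 bp and 35.3% farther away. Carriers had a median fold enrichment of 4.72, against 4.34 without the element, and 28 of them held 2 or more copies. The motif shares other than that of AANATGGC were not tested.

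The 60 bp around CAGCTG, in capitals, are given for the 6 strongest carriers that were free of repeated stretches and outside UTRs. They are shown because 96 gene-body windows held this element. Per1, a core gene of the circadian clock, had a fold enrichment of 6.34 in its intron, H6pd, a dehydrogenase of the endoplasmic reticulum, 6.31, and Tsc22d2, in a coding exon, 6.07. Gdf15, a stress-induced cytokine, had 6.05 in a coding exon, Nfic 6.02 at a separate site 2.19 kb from the one shown above, and Flnc, the muscle actin crosslinker filamin C, 5.93 in its first intron. The copy next to the summit lay within 6 bp of it in Gdf15 and Flnc, and Tsc22d2 and Nfic had 2 copies in the stretch shown.
Per1 (chr11:69097143-69097202, plus strand): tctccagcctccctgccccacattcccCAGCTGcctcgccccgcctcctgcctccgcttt
H6pd (chr4:149990341-149990400, plus strand): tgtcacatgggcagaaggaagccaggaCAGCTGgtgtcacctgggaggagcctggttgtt
Tsc22d2 (chr3:58415954-58416013, plus strand): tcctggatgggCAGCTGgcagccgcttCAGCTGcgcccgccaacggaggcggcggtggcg
Gdf15 (chr8:70629903-70629962, plus strand): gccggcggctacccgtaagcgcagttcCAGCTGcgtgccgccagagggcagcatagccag
Nfic (chr10:81414106-81414165, plus strand): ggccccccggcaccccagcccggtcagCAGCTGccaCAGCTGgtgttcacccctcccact
Flnc (chr6:29436026-29436085, plus strand): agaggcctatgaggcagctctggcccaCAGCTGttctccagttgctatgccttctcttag

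The AP-1 element TGANTCA, bound by Fos and Jun dimers, was also more frequent at gene-body summits than both at promoter summits and in flanking windows. It lay within 100 bp of 39 gene-body summits (10.3%, interval 7.40 to 13.8%), beside 1.94% of promoter summits, 6.73% of intergenic summits and 5.18% of flanking windows. With promoters taken from 1000 bp upstream to 100 bp downstream of a start, 4.90% of the gene-body peaks then counted held the element. It was in 36 of the 250 gene-body peaks that were not CpG rich (14.4%) and in 3 of the 130 that were (2.31%). For intergenic peaks the counts were 13 of 194 (6.70%) and 9 of 133 (6.77%) in the same order. All but 5 of the gene-body carriers were in introns, with 34 of 272 (12.5%). None of the 52 coding-exon peaks had the element. That allows a share of up to 5.77% when 3 counts are taken as the limit of a count of 0 (exact upper bound 6.85%). Both elements were held by 12 peaks, and 123 (32.4%) held at least 1 of them. Carriers of TGANTCA had a median fold of 4.37 and lay a median of 12260 bp from a start, beside 5363 bp for peaks without it.

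The stretches below show the AP-1 element in capitals, from the strongest carriers that had no CAGCTG, no repeated stretch and a summit outside UTRs. Atxn1, which encodes ataxin 1, had a fold enrichment of 8.52, and its window held 10 copies, while 63.3% of its bases matched at a shift of 21 bp, less than the 70% set below for a tandem window. Capg, an actin-capping protein gene, had 7.10 in its first intron, and Pcgf5, a Polycomb RING finger gene, had 5.13, a fold it shared with 5 other carriers that are not shown. The copies in Atxn1, 6 in Commd10 and 4 in Rftn1 gave 20 of the 63 copies counted in gene-body windows.
Atxn1 (chr13:45624055-45624114, plus strand): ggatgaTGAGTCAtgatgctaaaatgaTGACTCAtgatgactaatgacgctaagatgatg
Capg (chr6:72552755-72552814, plus strand): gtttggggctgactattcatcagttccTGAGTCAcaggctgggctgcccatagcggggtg
Pcgf5 (chr19:36349380-36349439, plus strand): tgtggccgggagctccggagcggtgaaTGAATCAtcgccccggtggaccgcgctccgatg

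**Figure D3:**
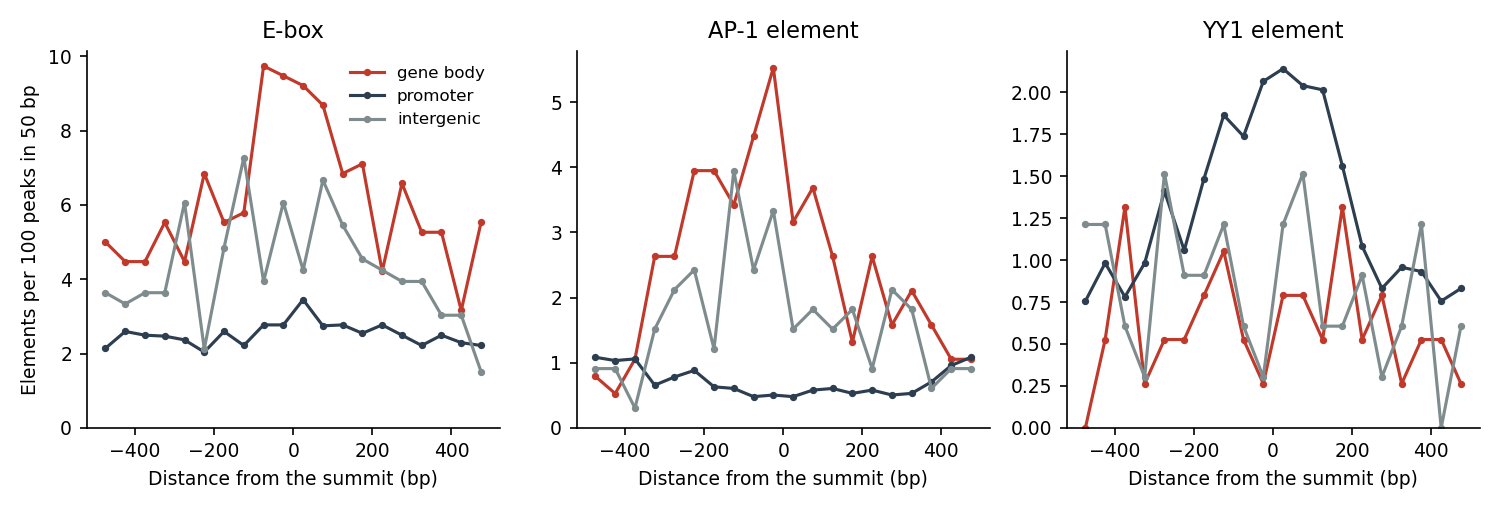
Number of elements per 100 peaks in bins of 50 bp (vertical axes) against the distance from the summit (horizontal axes, bp) for the E-box CAGCTG, the AP-1 element TGANTCA and the YY1 element AANATGGC, with 1 line for each class of peaks. In gene-body peaks the E-box reached 9.74 per 100 peaks and the AP-1 element 5.53 within 100 bp of the summit, while the YY1 element reached 2.14 at promoter summits. Every copy is counted, and the peaks in Atxn1, Commd10 and Rftn1 gave 20 of the 63 AP-1 copies in gene-body windows.

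The SP/KLF and ETS elements were rarer in gene-body peaks than in promoter peaks, yet more frequent than in flanking sequence. The SP/KLF element GGGCGGG was in 14.7% of gene-body windows, 40.9% of promoter windows and 3.27% of flanking windows. The ETS element CCGGAAG was in 3.42%, 13.2% and 0.955%, and the NRF1 element GCGCATGC in 2.89%, 5.26% and 0.546%. Intergenic windows held GGGCGGG in 19.0%, CCGGAAG in 3.67% and GCGCATGC in 2.14%. Among gene-body windows, GGGCGGG was in 42 of the 130 that were CpG rich (32.3%) and 14 of the other 250 (5.6%). The CTCF core AGGGGGC was in 10.8% of gene-body windows and 12.2% of promoter windows, against 3.82% of flanking windows. For CREB (TGACGTCA) the shares were 2.11%, 2.39% and 0.546% in the same order. The NFY box CCAAT (15.8%, 16.3% and 22.1%), the RUNX element TGTGGTT (2.89%, 1.28% and 5.18%), the TEAD element GGAATG (9.74%, 4.84% and 9.96%) and the MEF2 element TAAAAATA (4 of 380, 0.126% and 22 of 733) were at or below the flanking share in gene-body peaks.

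**Figure D4:**
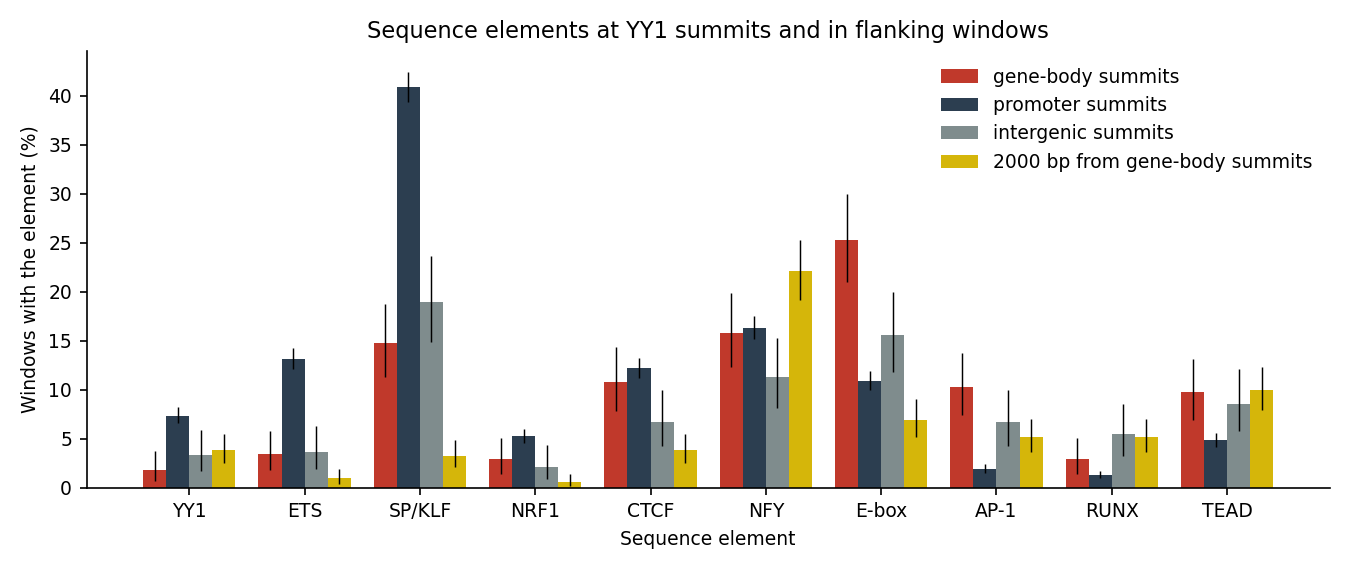
Share of 201 bp windows (vertical axis, percent) that hold each of 10 sequence elements, at gene-body, promoter and intergenic YY1 summits and in windows 2000 bp from the gene-body summits, with 95% exact binomial intervals for counting error. The E-box bar for gene-body summits, 25.3%, stands above the other 3, whereas the SP/KLF bar is highest for promoters, 40.9%.

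Of the 10 strongest gene-body peaks, 5 lay on tandem repeats. Cacng4, a calcium channel gamma subunit gene, had the highest fold enrichment of the whole list, 14.4, from 56 fragments over 2.96. Next came Snx29, a sorting nexin gene (9.46), Acvr1b, the activin receptor ALK4 (9.07), and Atxn1 (8.52). Myo15b, an unconventional myosin gene with the summit in a coding exon (8.28), Lama1, the laminin alpha 1 chain (8.07), Muc19, a mucin gene (8.07), and the non-coding genes Lncppara and 1700041M19Rik (both 7.49) were also among the first 10. A window was called tandem when at least 70% of its bases matched the window shifted by a period of 2 to 70 bases, a rule made after the sequences were seen. Of these 10 windows, 5 were tandem, with 31 of the other 370 gene-body windows (8.38%), 7 of 3971 promoter windows (0.176%), 14.8% of intergenic windows and 11 of 734 flanking windows. Over all 36 tandem windows the median fold was 4.39, with 30.6% at a fold of at least 5, beside 4.37 and 34.6% in the 315 peaks that were neither tandem nor mostly repeated.

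The central 81 bp of 3 tandem windows are given, because they are the sequence under the 3 highest folds. The period was 48 bp in Cacng4, 57 bp in Snx29 and 22 bp in Acvr1b. Repeated stretches make up part of each peak, since 45.5% of the 50-base stretches of the Cacng4 peak, 86.5% in Snx29 and 18.6% in Acvr1b occur more than once in the genome. No AANATGGC was within 100 bp of any of the first 10 summits.
Cacng4 (chr11:107784650-107784730, plus strand): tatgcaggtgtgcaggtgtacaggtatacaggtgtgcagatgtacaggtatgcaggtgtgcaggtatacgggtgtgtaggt
Snx29 (chr16:11423949-11424029, plus strand): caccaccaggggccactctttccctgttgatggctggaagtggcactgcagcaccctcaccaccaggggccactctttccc
Acvr1b (chr15:101196282-101196362, plus strand): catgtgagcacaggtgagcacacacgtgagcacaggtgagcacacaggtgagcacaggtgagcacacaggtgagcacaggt

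Peaks over a high local background had low folds and lay mostly on repeated sequence. More than 50% of the 50-base stretches occurred more than once in the genome in 53 gene-body peaks (13.9%, interval 10.6 to 17.8%), beside 2.87% of promoter peaks and 23.3% of intergenic peaks. A local background over 5 fragments was found at 43 gene-body peaks (11.3%), of which 25 were mostly repeated and 41 had at least 1 repeated stretch. These 43 had a median of 58 fragments over 26.6 and a median fold of 2.51 (1.65 to 4.04), and the other 337 had a median of 12 fragments and a median fold of 4.52. The other 28 mostly repeated peaks had a background of 5 fragments or less, and the peak in Snx29 and the strongest in Muc19 were among them. How reads that fit several places bear on these peaks and on their position was not tested.

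**Figure D5:**
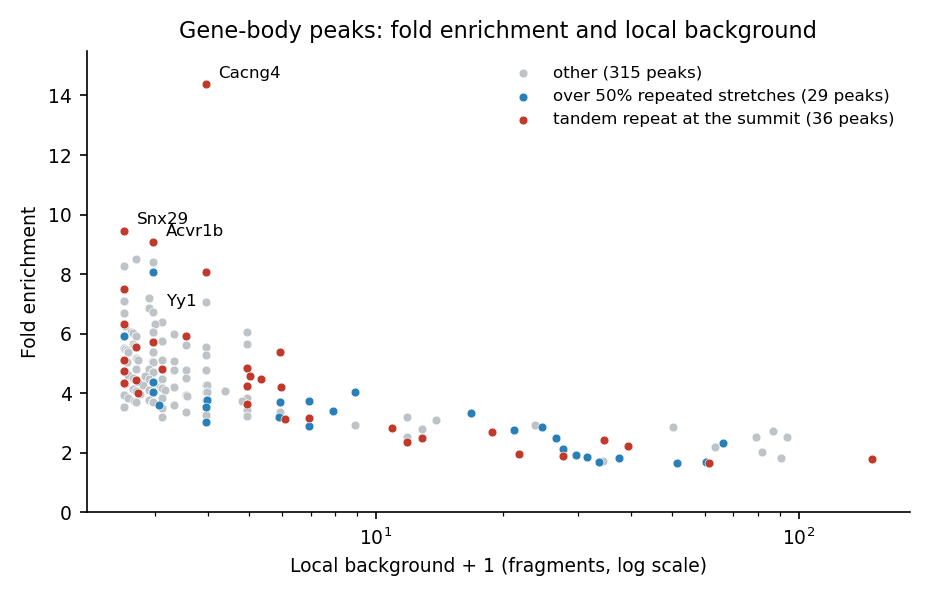
Fold enrichment (vertical axis) of the 380 gene-body peaks against their local background plus 1 in fragments (horizontal axis, log scale), with 36 peaks at a tandem repeat, 29 other peaks made mostly of repeated stretches and 315 others. Peaks with a background over 5 have folds of at most 4.04, and Cacng4 stands highest at 14.4.

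Repeated stretches were found in each of the 8 hosts with 3 or more peaks except Sept9. Sfi1, a centrin-binding protein of the centrosome, held 7 peaks and Pisd-ps1, a pseudogene next to it, 3, all on chromosome 11 with folds from 1.65 to 3.33 over backgrounds of 15.8 to 60.3. Muc19 held 4 peaks within 2.60 kb, all in sequence that is 100% repeated, and the non-coding gene 2700054A10Rik held 4, 1 of them with 265 fragments over 148. Gm47283 on chromosome Y held 3 and Ahnak2 held 3. Dop1b and Sept9 each held 3 peaks in introns, and only those of Sept9 had no repeated stretch in any of the 3, with folds of 3.94, 4.45 and 5.13 spread over 48.5 kb. In all, 27 genes held 2 or more gene-body peaks, with 68 peaks among them.

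The 380 peaks fell in 339 host genes. The host was protein coding for 329 peaks (86.6%), a lincRNA for 27 and a processed transcript for 11. Of 21938 protein-coding genes, 298 (1.36%) hosted a gene-body peak. These hosts had a median span of 46.5 kb, beside 17.4 kb for all protein-coding genes. They also had a promoter peak in 95 cases (31.9%, interval 26.6 to 37.5%), beside 18.8% of all protein-coding genes. Counted by peak, 126 of the 380 (33.2%) lay in a gene with a promoter peak. That share was 19.7% among peaks with a fold of at least 5. It was 16.8% with promoters taken from 1000 bp upstream to 100 bp downstream of a start. Yy1 held 1 of the 126 peaks. Its second peak on chr12 (108792694 to 108792920, fold 3.64) had its summit in the Yy1 promoter window and 19 bp upstream of the start of Gm34220.

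Among the gene lists, hosts were few. Of 39 MuSC and myogenic genes, 4 (10.3%) hosted a gene-body peak, beside 1.36% of all protein-coding genes, and their promoters held peaks for 10, beside 18.8%. Notch3, a Notch receptor (5.92 with 14 fragments, intron), and Hes1, a repressor that Notch induces (5.11 with 13, coding exon), had the higher folds. Sdc4, the surface proteoglycan syndecan 4 (3.94 with 9, first intron), and Cdh15, M-cadherin (3.23 with 15, first intron), had the lower ones. All 4 genes lacked a promoter peak. The median span of the genes in this list was 22.5 kb, and no list was adjusted for span or sequence.

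The other lists gave 9 hosts. Among 37 extracellular matrix and adhesion genes, 3 (8.11%) were hosts, namely Col18a1 (5.38), Col4a2 (4.73) and Lamc1 (4.57), all in introns, with a median span of 78.0 kb for the list. Among 27 TGF-beta pathway genes, 2 (7.41%) were hosts, the latent TGF-beta binding protein genes Ltbp4 (5.71) and Ltbp3 (4.80, in the 5′ UTR). Of 42 genes for chromatin architecture and YY1 partners, Yy1 and Kat2b, an acetyltransferase gene (4.16), were hosts (4.76%). Of 44 sarcomere and dystrophin complex genes, Flnc (5.93) was the host (2.27%), and of 45 chemokine, NF-kB and JAK-STAT genes, Irf2, an interferon regulatory factor gene (3.94), was the host (2.22%). None of the 18 AP-1, EGR and CREB family genes hosted a gene-body peak, where 1.36% of all protein-coding genes did. Promoter peaks were held by 12 of the 37 matrix genes, 13 of the 27 TGF-beta genes, 25 of the 42 chromatin genes, 7 of the 44 sarcomere genes, 14 of the 45 chemokine pathway genes and 9 of the 18 AP-1, EGR and CREB genes, beside 18.8% of all protein-coding genes.

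The peak in Taf15, an RNA-binding protein gene next to the chemokine gene Ccl5, is described because the study examined a distal YY1 site of Ccl5. The study's text gives no coordinates for that site, and whether it is this peak was not tested. It spanned chr11:83474343-83474597 in the first intron, 1298 bp from the Taf15 start, with 9 fragments over 1.70 and a fold enrichment of 3.71. That ranked 298 among the 380 gene-body peaks, with 21.3% of them lower. The sequence of the whole peak is given for the same reason. It held no AANATGGC, no ATGGC on either strand, no CAGCTG and no TGANTCA. Its GC share at the summit was 44.3%, below the lower quartile of gene-body peaks (52.2%), and no 50-base stretch of it was repeated. A CACCTG, in capitals, began 8 bp downstream of the summit at position 83474398, and CCAAT was present 2 times.
Taf15 (chr11:83474343-83474597, plus strand): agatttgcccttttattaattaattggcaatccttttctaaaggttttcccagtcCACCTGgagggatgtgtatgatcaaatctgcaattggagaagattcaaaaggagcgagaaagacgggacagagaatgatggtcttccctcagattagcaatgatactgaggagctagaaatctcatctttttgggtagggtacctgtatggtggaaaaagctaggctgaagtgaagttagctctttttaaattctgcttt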

How the data were processed

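By the study's methods and the labels, reads were trimmed, quality filtered and aligned with Bowtie2 (mm10), duplicates were dropped, and the authors ran MACS2 on 1 YY1 library with 1 background library as control. Tool versions were not given in the sources used here. The deposited list gives the position and summit of each peak, a fold enrichment (the ratio of fragments to local background, each plus 1), the deposited −log10 of the p-value and of the q-value, and an integer score that was not used. As the list holds only peaks past the authors' limit, the weakest sites are missing, and the Poisson p-value describes 1 pair of libraries.

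Peaks were placed by their summit against GENCODE M21 basic transcripts on the 21 chromosomes. The number of fragments at the summit was recovered as the whole number that gives both the fold enrichment and the p-value of each peak, which fitted all 4681 peaks within 0.001 of −log10 p. Sequence came from the RefSeq copy of GRCm38, and 50-base stretches of peaks were counted on both strands of the whole assembly. Two-sided Fisher's exact tests were adjusted together by Benjamini-Hochberg (5 tests), and all other shares are descriptions with Clopper-Pearson 95% intervals. The members and the gene and motif lists were chosen with earlier results of these data known. Genes named are the hosts of the 10 highest folds (1 of them is not reported here), of all gene-body peaks with AANATGGC within 100 bp, Taf15, the 8 hosts with the most peaks and up to 6 hosts from each gene list. A host is the gene whose span holds the summit, protein-coding genes first, then the one with the nearest start. Other genes named, the other forms of the E-box and the tandem rule were chosen after values were seen. Sequences on chromosome 18 were not shown. All 13 checks on simulated data passed. Versions were Python 3.11.15, scipy 1.17.1, numpy 2.4.6, matplotlib 3.10.9, pandas 2.3.3, numba 0.67.0 and pysam 0.24.0.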

Additional observations from a re-analysis of the deposited data

How the results depend on the processing

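With a single YY1 library, no replicate could be left out. No paired analysis of samples was possible because the list comes from a single pair of libraries. Flanking windows were matched to summits, but the tests did not use this pairing. The count of gene-body peaks and their makeup depended on what counts as a promoter and on the limits set on peaks. With 500 bp either side of a start there were 581 gene-body peaks, with 42.9% in first introns, 49.7% within 2000 bp, a median fold of 4.50, a median GC share of 62.7%, 50.3% CpG rich and 10.2% mostly repeated. With 1000 bp upstream to 100 bp downstream there were 1224, with 48.5% in introns, 76.1% within 2000 bp, a median fold of 4.73, a GC share of 70.1%, 74.0% CpG rich, 6.29% mostly repeated, a host promoter peak for 16.8%, the E-box in 16.5% and the AP-1 element in 4.90%. There the ratio for AANATGGC was 1.17 against intergenic peaks (adjusted p = 0.852, Fisher's exact test) and 1.23 against flanking windows (0.473), and the ratio for a fold of at least 5 against intergenic peaks was 0.986 (0.852). With 2000 bp either side, 76.7% were in introns, the GC share was 57.5%, 25.3% were CpG rich, and the AANATGGC ratio against flanks was 0.324 (0.0318). With protein-coding genes only, the GC share was 61.2%, 42.2% were CpG rich, 20.1% mostly repeated, 42.5% had a host promoter peak, and the fold ratio against intergenic peaks was 0.843 (0.0782). The comprehensive annotation gave 76.2% in introns, 42.9% in first introns and 27.9% CpG rich. With RefSeq starts also counted, which was added after the data were seen, 17.6% were within 2000 bp, the GC share was 57.2% and 26.4% were CpG rich. With peaks of a fold of at least 5 only, 122 remained, with 41.8% in first introns, 33.6% within 2000 bp, a GC share of 63.9%, 49.2% CpG rich, 5.74% mostly repeated, 19.7% with a host promoter peak and an AANATGGC ratio against promoters of 0.323 (0.156). With q under 0.01 the median fold was 4.70, and without peaks over a background of 5 fragments, also added later, it was 4.52 with 8.31% mostly repeated. First introns of protein-coding transcripts alone held 29.5%, and any repeated stretch was found in 27.6%. A fold of at least 4 gave a ratio of 1.00 against intergenic peaks. For ATGGC the ratio was 0.816 against promoters (0.0380) and 0.816 against flanks (0.0639), and for AANATGG 0.663 against promoters (0.0449). Against intergenic peaks the ratio was 1.13 for ATGGC and 1.13 for AANATGG, and for AANATGG against flanks 0.502 (0.00191). The number of gene-body peaks was 292 with 2000 bp either side, 319 with the comprehensive annotation and 307 with RefSeq starts also counted, all below the exact interval of the main share. These and the other values, 132 in all, stayed on the same side of their test, within their interval or, for numbers of peaks, within 1.5 times the main number. The causes were not tested. The lower share of folds of at least 5 than in promoter peaks held under every alternative run. The window of 2000 bp leaves no peak for the share within 2000 bp, so this was not computed.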
